A study of Mus musculus with 6 samples.

Results

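The 38 genes described here encode the glucose and lactate carriers, the enzymes of glycolysis and the enzymes of the pentose phosphate pathway, together with the kinases that control the entry of pyruvate into mitochondria. They were chosen by name, as the non-control probes of the array whose gene name was on the list, and all 38 were measured, by 57 of the 55681 probes, out of 34797 gene names on the array. The study asked what the loss of the RNA-binding proteins TIA1 or TIAR does to the transcriptome of immortalized murine embryonic fibroblasts (MEF). Total RNA was hybridized to 1-colour Agilent SurePrint G3 Mouse 8x60 arrays. WT MEF carried the W4 background, TIA1 KO MEF lacked Tia1 on a BALB/c background, and TIAR KO MEF lacked Tial1, the gene of TIAR, on a C57BL/6 background. No group received a treatment. Each group had 2 arrays, 6 in all, so that the deleted gene cannot be told apart from the strain or from the line, and p-values measure only the spread between the 2 arrays of a line. All arrays lay on 1 slide, the TIA1 KO arrays in the other row from the WT and TIAR KO arrays, so that slide row and TIA1 genotype cannot be told apart either. Both knockouts were compared with the same WT arrays, and their differences from WT are therefore not independent of each other.

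Glycolysis splits glucose into pyruvate in the cytosol, and each step is run by a small family of isozymes with different tissue patterns. Phosphofructokinase is the committed step and is driven by fructose 2,6-bisphosphate, which the PFKFB enzymes make and break down. Pyruvate is either reduced to lactate and exported or oxidized by the pyruvate dehydrogenase complex, which the PDK kinases switch off by phosphorylation. The pentose phosphate pathway branches off at glucose 6-phosphate and yields NADPH and ribose 5-phosphate. TIA1 and TIAR bind U-rich stretches of RNA and act in splicing, translational silencing and the assembly of stress granules.

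Each array read 55681 probes on a log2 intensity scale, on which 1 unit is a 2-fold difference. Of these, the scanner software marked 23569 and 26295 probes as well above background in WT MEF, 24796 and 26011 in TIAR KO and 16021 and 19996 in TIA1 KO MEF. The median local background was 52 and 47 intensity units in WT, 46 and 42 in TIAR KO, and 89.5 and 58 in TIA1 KO MEF. TIA1 KO arrays were therefore brighter in background and poorer in detected probes, and the SD between the 2 arrays of a group was 0.44 in TIA1 KO against 0.27 in WT and 0.29 in TIAR KO MEF. The part that this array quality plays in the TIA1 KO values was not tested. Both WT arrays detected 35 of the 38 genes above background, both TIAR KO arrays 34 and both TIA1 KO arrays 29, and 1, the hexokinase Hk3, was above background on none of the 6 arrays. No spot was saturated. With 2 arrays a group, array number sets how precise each value is.

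The targeted genes were read first. The 2 brighter probes of Tia1 gave 10.72 and 8.54 (chr6:86383073-86383132) and 9.56 and 9.90 (chr6:86381136-86381195, mm9, as are all probe positions here) in WT MEF, against 7.87 and 8.44, and 7.57 and 8.65, in TIA1 KO MEF. Both sets of TIA1 KO values lay below WT, by 1.47 ± 0.79 (SE) and 1.62 ± 0.42 on the log2 scale, but neither passed the test (limma, adjusted p = 0.288 and 0.116). Another Tia1 probe was above background on 1 TIA1 KO array and on neither WT array, and read at least 1.82-fold higher in TIA1 KO than in WT MEF (adjusted p = 0.149). The Tial1 probe at chr7:135583306-135583365 read 11.71 and 11.09 in WT, 11.85 and 11.49 in TIA1 KO, and 10.00 and 9.65 in TIAR KO MEF, and it fell by 1.58 ± 0.26 in TIAR KO MEF (adjusted p = 0.0254). The brighter Tial1 probe had 1 usable WT array, the other spot being an outlier that was dropped, and it read 13.22 in WT and 9.57 and 11.60 in TIAR KO MEF (log2 difference -2.63 ± 0.87, adjusted p = 0.2). The sources used here do not say whether these probes lie inside the disrupted parts of the genes.

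The labelled cell type was checked with 8 fibroblast markers. Both WT arrays detected 6 of the 8, both TIA1 KO arrays 7, and both TIAR KO arrays all 8. Pdgfra was not above background on either WT array and Thy1 on neither TIA1 KO array. The summed intensity of the 8 markers was 322000 and 303584 in WT, 1083977 and 1042195 in TIA1 KO, and 1039125 and 1024063 in TIAR KO MEF, with 7 of the 8 called higher than WT in TIAR KO and 6 in TIA1 KO MEF. The brightest of them was Vim in WT MEF (17.24 and 17.49, not called in either knockout) and Col1a2 in the knockouts (18.60 and 18.28 in TIA1 KO and 18.47 and 17.97 in TIAR KO, from 16.35 and 15.52 in WT MEF). Col3a1, a fibrillar collagen, read 9.52 and 9.08 in WT, 15.59 and 15.65 in TIA1 KO, and 15.16 and 16.65 in TIAR KO MEF, a rise of 6.32 and 6.60 (adjusted p = 0.00369 and 0.00206). Pdgfra was at least 9.52-fold (TIA1 KO) and 26.1-fold (TIAR KO) higher than in WT MEF, and Pdgfrb rose by 3.60 and 3.81. Fn1 (fibronectin) rose by 2.74 in TIA1 KO and by 2.20 in TIAR KO MEF, and Thy1 read 6.63 and 6.98 in WT and 14.84 and 14.74 in TIAR KO MEF. The WT line therefore differed from both knockout lines in its fibroblast markers as well as in the genes below, and the part of that difference in the results was not tested.

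A gene was called where its brightest probe had a Benjamini-Hochberg adjusted p below 0.05 over all probes in limma and changed more than 2-fold. In TIA1 KO MEF 1 of the 38 genes was called higher (Pdk4) and 4 lower (Slc2a4, Pfkm, Pfkp and Tpi1), 13.2% against 4.51% of all gene names on the array read by the same rule (2.88% higher and 1.63% lower). In TIAR KO MEF 5 were called higher (Slc2a3, Pfkfb3, Pgam2, Eno3 and Pdk4) and 4 lower (Pfkl, Slc16a3, Pdk1 and Pdk3), 23.7% against 7.18% (4.36% higher and 2.82% lower). Background shares depend on how many dim probes are counted, and over the probes detected on both arrays of either group they were 7.56% (TIA1 KO) and 12.7% (TIAR KO). For the 38 genes the median log2 difference from WT was -0.43 (TIA1 KO) and -0.20 (TIAR KO), beside -0.09 and -0.02 over all probes. Of the 38 genes, 29 and 27 were below 0. The share of all probes below 0 was not counted, but their medians were below 0 as well. The medians of the 38 genes moved with the scaling. With a common median of detected probes they were -0.13 (TIA1 KO) and -0.08 (TIAR KO), beside 0.88 and 0.43 over all probes. With a common array median they were -1.69 and -0.54, beside -0.67 and -0.02. Under both scalings the members' median lay below that of all probes by 1.02 (TIA1 KO) and 0.52 (TIAR KO). Both only shift each array by a constant, so the gap had to be the same and counts as 1 result. In the main fit the members' median minus that of all probes was -0.34 (TIA1 KO) and -0.18 (TIAR KO). With detected probes only it was -0.21 and -0.15. Over the probes detected in at least 1 group the median of all probes was -0.26 (TIA1 KO) and -0.05 (TIAR KO).

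The counts depended on the processing, as the plot of calls by processing setting shows. The TIAR KO counts moved between 3 and 5 higher and 3 and 7 lower over the scaling, filter and fitting settings, apart from the treat test of a fold above 2, which called none. They were 2 higher and 3 lower without WT replicate 1, 4 and 3 without WT replicate 2, 5 and 4 without TIAR KO replicate 1, and 3 and 4 without TIAR KO replicate 2. The last 2 of these pairs include Pfkp, which was called higher in the one and lower in the other, while Pfkfb3 lost its call in both and Slc2a3 and Pdk3 lost theirs without TIAR KO replicate 2. In TIA1 KO MEF no member passed from the authors' own log2 table (lowest adjusted p of the 5 called genes 0.0504), and without WT replicate 1 or 2 limma called none of the probes on the array (7204 and 7417 had an unadjusted p under 0.05). Without TIA1 KO replicate 1 the calls were 1 higher and 2 lower, and without TIA1 KO replicate 2 they were 1 higher and 11 lower. Scaling the arrays to a common median gave 29 members lower and none higher in TIA1 KO MEF, but that scaling also moved the median over all probes to -0.67, against which the members' median was lower by 1.02.

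**Figure D1:**
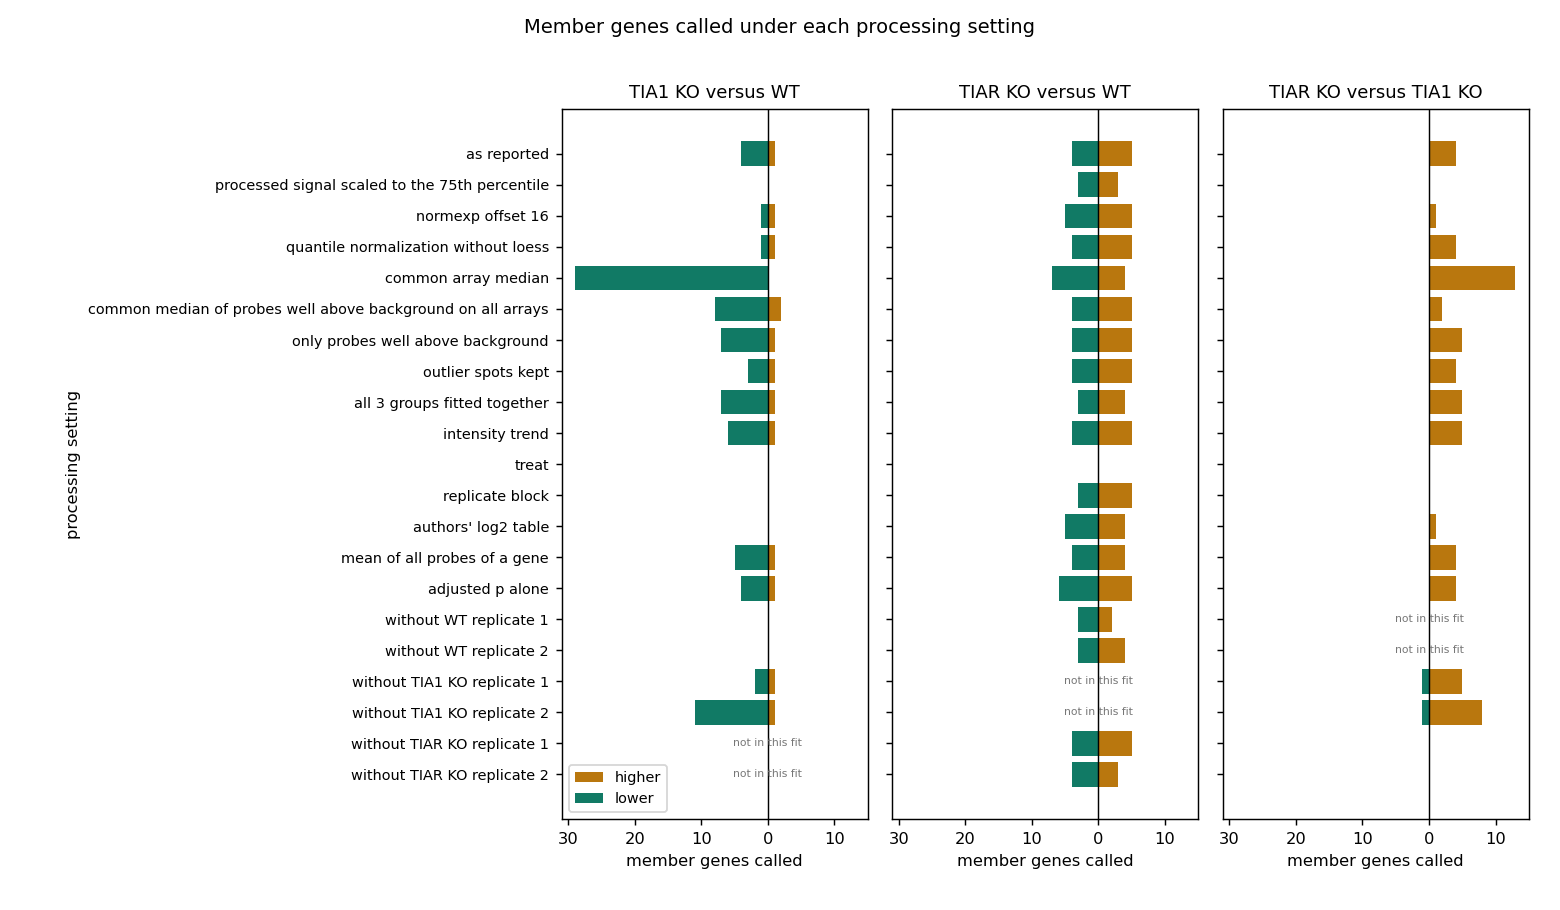
The number of the 38 genes called higher (bars to the right of 0) and lower (bars to the left of 0) in each comparison, on the x axis, for each processing setting on the y axis; the top bar is the count as reported. TIAR KO counts stay near 5 higher and 4 lower for most settings, whereas the TIA1 KO counts run from none, for example with the authors' log2 table, to 29 lower with a common array median.

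Pyruvate dehydrogenase kinases moved in opposite directions. Pdk4, a kinase typical of fasting and of oxidative tissues, rose in both knockouts, while Pdk1, the kinase that hypoxia-inducible factor induces, and Pdk3 fell in TIAR KO MEF and read lower in TIA1 KO MEF without passing the test. For the kinases that were called and for 2 further called genes, the lactate carrier Slc16a3 and the liver-type phosphofructokinase Pfkl, the 100 bases before the RefSeq gene start (GRCm38.p6) are printed 5′ to 3′ on the gene's strand, so that the promoters of genes that fell (Pdk1, Pdk3, Slc16a3 and Pfkl) can be read beside that of a gene that rose (Pdk4). Capitals mark the letters ACGTG or GCGTG, the core letters known as the recognition sequence of hypoxia-inducible factor, on either strand (CACGT and CACGC on the other), and overlapping matches run together.
Pdk1, chr2:71873124-71873223, + strand: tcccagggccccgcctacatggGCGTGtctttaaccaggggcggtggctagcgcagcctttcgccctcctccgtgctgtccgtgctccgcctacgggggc
Pdk3, chrX:93832151-93832250, - strand: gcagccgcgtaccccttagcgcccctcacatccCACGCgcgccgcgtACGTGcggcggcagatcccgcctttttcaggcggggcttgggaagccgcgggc
Slc16a3, chr11:120948967-120949066, + strand: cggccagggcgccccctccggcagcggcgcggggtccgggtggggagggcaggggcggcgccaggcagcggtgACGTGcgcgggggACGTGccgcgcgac
Pfkl, chr10:78009808-78009907, - strand: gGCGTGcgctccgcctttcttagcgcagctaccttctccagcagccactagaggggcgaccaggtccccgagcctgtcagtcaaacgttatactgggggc
Pdk4, chr6:5496279-5496378, - strand: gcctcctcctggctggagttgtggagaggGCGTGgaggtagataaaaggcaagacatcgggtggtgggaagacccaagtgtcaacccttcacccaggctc
Slc16a3 and Pdk3 each held 2 matches in these 100 bases, and Pdk1, Pfkl and Pdk4 held 1 each, so that among these 5 genes the letters stood before those that fell and before the gene that rose. Of the other called genes, Tpi1, which fell, and Pgam2 and Eno2 held no match in their windows, and Slc2a3 and Slc2a4 had no window. Pfkm and Pfkp, which fell in TIA1 KO MEF, Pfkfb3 and Eno3, which rose in TIAR KO MEF, and Pgd held a match. Over the whole RefSeq window of 300 bases, 250 before and 50 after the start, 42 of the 55 windows of the members (76.4%) held at least 1 match, beside 43.8% of the 32851 windows of all genes. The windows of the members were also richer in the CG pairs these letters need, with a median of 17 CG per window beside 7, and the part of base composition in the share was not tested. RefSeq windows were found for 36 of the 38 genes. Pdk1 had 2 such windows, and the one not printed held no match.

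Pdk4 (chr6:5433441-5433500) read 7.71 and 7.92 in WT, 9.90 and 9.54 in TIA1 KO, and 9.38 and 9.29 in TIAR KO MEF. Every knockout array lay well above both WT arrays. Pdk4 rose by 1.90 ± 0.21 in TIA1 KO MEF, 3.74-fold (adjusted p = 0.0295), and by 1.52 ± 0.15 in TIAR KO MEF, 2.87-fold (adjusted p = 0.00538). Scaling to a common array median left the TIA1 KO rise at 1.11 (adjusted p = 0.0696), and in the authors' table it was 1.84 (adjusted p = 0.0509). The TIAR KO rise passed without each array in turn.

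Pdk1 (chr2:71739688-71739747) read 10.32 and 10.28 in WT, 7.50 and 8.73 in TIA1 KO, and 8.64 and 8.71 in TIAR KO MEF. Every knockout array lay below both WT arrays, and the TIA1 KO arrays were the most spread, with the lower of them not well above background and the other beside the TIAR KO arrays. Pdk1 fell by 1.63 ± 0.14 in TIAR KO MEF, 3.09-fold (adjusted p = 0.00311), a call that held without each array in turn but was lost with all 3 groups fitted together. The larger TIA1 KO difference of -2.18 ± 0.45 did not pass (adjusted p = 0.0883). Pdk3 (chrX:91010227-91010286) read 12.99 and 13.19 in WT, 12.04 and 12.15 in TIA1 KO, and 12.18 and 11.78 in TIAR KO MEF. Both knockouts lay below WT with no overlap, by 1.00 ± 0.17 in TIA1 KO (adjusted p = 0.0657) and, as a call, by 1.11 ± 0.20 in TIAR KO MEF (adjusted p = 0.0312). The TIAR KO call was lost without either WT array (adjusted p = 0.0755 and 0.11) and without TIAR KO replicate 2 (log2 difference -0.91, adjusted p = 0.112). Pdk2 read 8.80 and 8.73 in WT, 7.43 and 8.32 in TIA1 KO, and 9.12 and 9.03 in TIAR KO MEF, so that the knockouts lay on opposite sides of WT, with neither difference called (adjusted p = 0.188 and 0.32), and the TIAR KO values of a second Pdk2 probe overlapped WT. The substrate of these kinases, the E1 alpha subunit Pdha1, differed from WT by -0.37 ± 0.16 (TIA1 KO, adjusted p = 0.215) and -0.45 ± 0.15 (TIAR KO, adjusted p = 0.166).

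**Figure D2:**
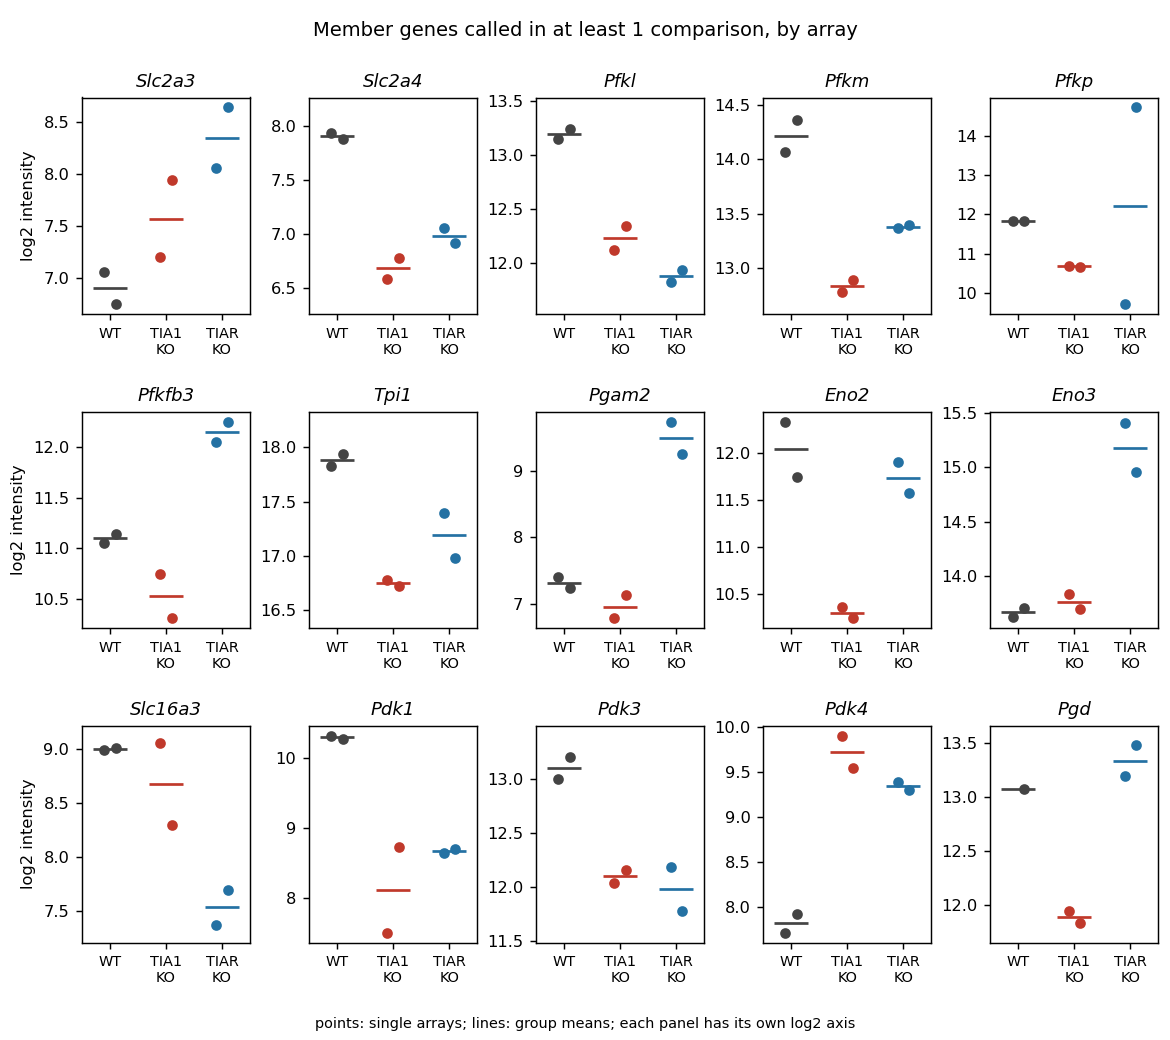
Log2 intensity (y axis) of the brightest probe of each gene called in at least 1 of the 3 comparisons, for WT, TIA1 KO and TIAR KO MEF (x axis), with 1 point per array and a line at the group mean. Pdk4 is above WT on all 4 knockout arrays, Pdk1, Pdk3 and Pfkl are below it, Pgam2 and Eno3 are high in TIAR KO MEF, Pfkp is split between the TIAR KO arrays, and Pgd has 1 usable WT array.

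Phosphofructokinase isozymes read lower in the knockouts, apart from Pfkp in TIAR KO MEF, which could not be settled. Pfkl (chr10:77450926-77450985), the liver type, read 13.15 and 13.24 in WT, 12.13 and 12.34 in TIA1 KO, and 11.82 and 11.94 in TIAR KO MEF. Knockout and WT arrays did not overlap, and Pfkl fell by 1.31 ± 0.14 in TIAR KO MEF, 2.48-fold (adjusted p = 0.00703), while the TIA1 KO difference of -0.96 ± 0.17 did not pass (adjusted p = 0.0703). Pfkm (chr15:97962713-97962772), the muscle type, read 14.07 and 14.37 in WT, 12.78 and 12.88 in TIA1 KO, and 13.37 and 13.39 in TIAR KO MEF. Pfkm fell by 1.39 ± 0.18 in TIA1 KO MEF, 2.61-fold (adjusted p = 0.043), and its TIAR KO difference of -0.84 ± 0.17 passed the adjusted p (0.0449) but not the fold. The brightest Pfkp probe (chr13, from 6581718 to 6583872), of the platelet type, read 11.83 and 11.83 in WT and 10.68 and 10.66 in TIA1 KO MEF, a fall of 1.16 ± 0.15 (adjusted p = 0.0395). On the TIAR KO arrays the same probe read 9.70 and 14.74, a gap that no other called gene showed, and the difference from WT was 0.39 ± 1.55, or 2.91 (adjusted p = 0.00939) without TIAR KO replicate 1 and -2.13 (adjusted p = 0.0149) without TIAR KO replicate 2. The second Pfkp probe, at chr13:6579124-6579183, read 7.67 and 7.53 on those arrays and 7.45 and 7.64 in WT, so that no direction can be given for Pfkp in TIAR KO MEF. In TIA1 KO MEF this probe read 6.79 and 7.15, above background on neither array, a difference that did not pass (adjusted p = 0.168). Calls for Pfkm and Tpi1 in TIA1 KO MEF were also lost without TIA1 KO replicate 1 (adjusted p = 0.0541 and 0.0502). That for Pfkp held there but was lost with the mean of both probes (log2 difference -0.87) and with all 3 groups fitted together.

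For the earlier steps, from glucose to fructose 6-phosphate, none of Hk1, Hk2, Hk3 and Gpi1 (the isomerase) was called in either knockout, and the log2 differences of their brightest probes lay between -0.47 and 0.14. A second Gpi1 probe read 17.05 and 17.13 in WT and 16.51 and 14.59 in TIAR KO MEF, a difference of -1.54 (adjusted p = 0.246) beside -0.04 for the brightest probe by mean, and the low value came from TIAR KO replicate 2, the array on which Pfkp was high. Among the glucose carriers, Slc2a1 (GLUT1), the main carrier of cultured cells, read 14.65 and 14.54 in WT, 14.38 and 14.65 in TIA1 KO, and 13.46 and 14.49 in TIAR KO MEF, with no difference called. Slc2a3 (GLUT3, chr6:122678075-122678134), a high-affinity carrier, read 7.06 and 6.74 in WT, 7.20 and 7.94 in TIA1 KO, and 8.05 and 8.64 in TIAR KO MEF. It was not well above background in WT or TIA1 KO MEF. It was at least 2.61-fold higher in TIAR KO than in WT MEF (adjusted p = 0.0282). For this and every other "at least", each array of the group not above background is set at the higher of the probe's own reading and the background limit. That limit is the array's lowest signal among probes well above background. Some probes not well above background read above it, as Slc16a3 did on TIA1 KO replicate 1 (9.05 beside a limit of 8.03). These folds are therefore approximate and not strict lower bounds. The Slc2a3 call was lost without either WT array (log2 difference 1.60 and 1.29), without TIAR KO replicate 2 (1.15) and with all 3 groups fitted together. Slc2a4 (GLUT4, chr11:69756073-69756132), the insulin-regulated carrier, read 7.93 and 7.88 in WT and was not above background in either knockout, with 6.59 and 6.78 in TIA1 KO and 7.05 and 6.91 in TIAR KO MEF. Slc2a4 was at least 1.42-fold higher in WT than in TIA1 KO MEF (adjusted p = 0.043), and its call there rests on the fitted fold of 2.33. That call was lost without TIA1 KO replicate 1 and held in 6 of 17 alternatives. The background limit of TIA1 KO replicate 1 (8.03) lay above both WT readings. Slc2a4 was at least 1.71-fold higher in WT than in TIAR KO MEF (adjusted p = 0.0224) but was not called there. With both knockouts at background, these readings cannot show whether either fold exceeds 2. Scaled to the median of probes detected on all arrays, the TIA1 KO difference of Slc2a4 was 0.08.

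The PFKFB enzymes did not move together. Pfkfb3 (chr2:11393453-11393512), the isozyme with the highest kinase activity, read 11.05 and 11.14 in WT, 10.75 and 10.31 in TIA1 KO, and 12.05 and 12.25 in TIAR KO MEF. It rose by 1.06 ± 0.15 in TIAR KO MEF (adjusted p = 0.0171), just past the fold limit, and this call was lost without any 1 of the 4 arrays (adjusted p between 0.0547 and 0.0845). A second Pfkfb3 probe, placed by the array files between 11404189 and 11405602 on chr2, was not well above background on any of the 6 arrays, so that the rise was read from 1 probe. Pfkfb4 read 12.26 and 12.70 in WT, 11.11 and 10.84 in TIA1 KO, and 11.81 and 11.83 in TIAR KO MEF. Its TIA1 KO difference of -1.50 ± 0.23 was among the largest of the 38 genes but did not pass (adjusted p = 0.0565), and its second probe was above background on no array. Pfkfb2 was not well above background on either TIA1 KO array and read at least 1.65-fold higher in WT than there (adjusted p = 0.149). Pfkfb1 differed by -1.11 ± 0.42 in TIAR KO MEF (adjusted p = 0.224), with arrays that did not overlap WT.

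In the triose steps Tpi1 fell in TIA1 KO MEF, and Pgam2 and Eno3, isozymes known from muscle, rose in TIAR KO MEF. Aldoa, Aldoc, Gapdh, Pgk1, Pgam1 and Eno1 had log2 differences between -0.46 and 0.36, none of them called. The 8 Gapdh probes gave differences between -0.39 and 0.10 in TIA1 KO and between -0.29 and 0.09 in TIAR KO MEF. The brightest Gapdh probe was placed on chromosome 7 and the Pgk1 probe on chromosome 3 by the array files, away from the genes on chromosomes 6 and X, so that these probes may read near-identical copies and are uncertain for the gene. Tpi1 (triosephosphate isomerase, chr6:124760947-124761006) read 17.83 and 17.94 in WT, 16.78 and 16.72 in TIA1 KO, and 17.40 and 16.98 in TIAR KO MEF. It fell by 1.13 ± 0.15 in TIA1 KO MEF, 2.19-fold (adjusted p = 0.044), its second probe gave -0.95 (adjusted p = 0.0674), and the TIAR KO difference of -0.70 ± 0.19 did not pass (adjusted p = 0.109).

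Pgam2, the muscle phosphoglycerate mutase (probe on chr11, from 5701822 to 5703040), read 7.40 and 7.24 in WT, 6.79 and 7.14 in TIA1 KO, and 9.74 and 9.25 in TIAR KO MEF. Only the TIAR KO arrays were above background, and Pgam2 was at least 4.51-fold higher there than in WT MEF, with the WT readings themselves as the lower side (log2 difference 2.17 ± 0.21, adjusted p = 0.00463), a call that held without each array in turn. Eno3, the muscle enolase (chr11:70475953-70476012), read 13.62 and 13.71 in WT, 13.83 and 13.69 in TIA1 KO, and 15.41 and 14.95 in TIAR KO MEF. It rose by 1.52 ± 0.20 in TIAR KO MEF, 2.86-fold (adjusted p = 0.0124, or 0.0534 without WT replicate 1), and differed from WT by 0.09 in TIA1 KO MEF (-1.51 with arrays scaled to a common median). Of the 5 skeletal muscle markers, the defining genes Myod1, Myog, Ckm and Myh3 were above background on none of the 6 arrays, and Des (desmin) read 7.53 and 7.57 in WT, 7.07 and 7.27 in TIA1 KO, and 8.78 and 8.63 in TIAR KO MEF, a rise of 1.15 (adjusted p = 0.0112). The summed intensity of these markers was 633 and 621 in WT, 716 and 660 in TIA1 KO, and 880 and 865 in TIAR KO MEF. Eno2, the neuronal enolase (chr6:124710388-124710447), read 12.33 and 11.74 in WT, 10.36 and 10.24 in TIA1 KO, and 11.90 and 11.57 in TIAR KO MEF. Both TIA1 KO arrays lay below every other array, yet the difference of -1.74 ± 0.25 stood at an adjusted p of 0.0511.

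**Figure D3:**
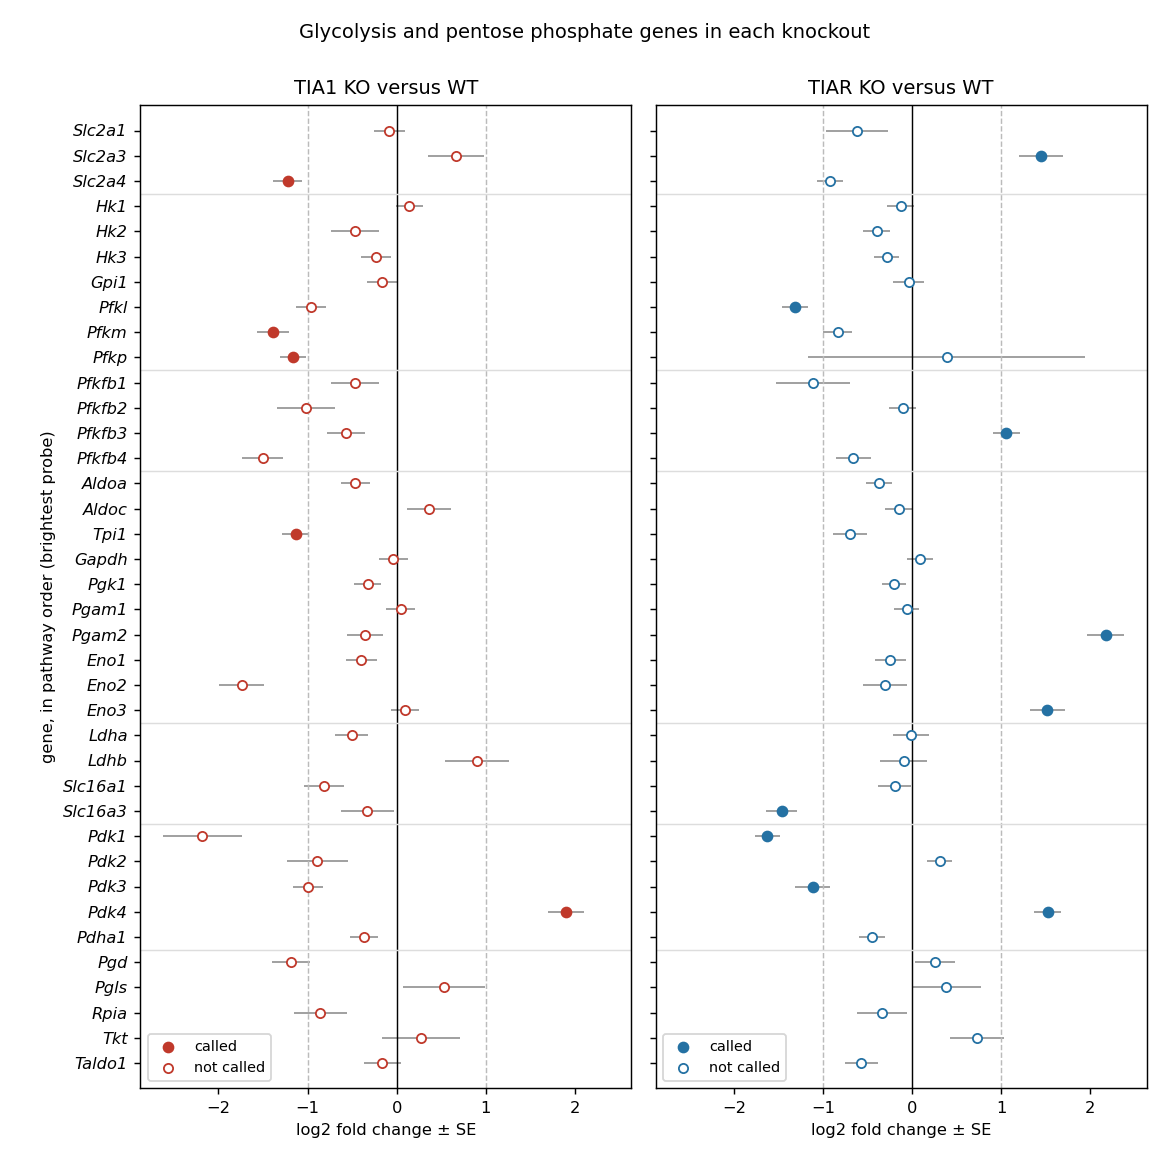
Log2 fold change against WT (x axis, with SE bars) of each of the 38 genes in pathway order (y axis), in TIA1 KO (left) and TIAR KO MEF (right); filled points were called, and dashed lines mark a 2-fold difference. Most open points lie left of 0 in both panels, Pdk4 is the filled point on the right in both, and the bar of Pfkp in TIAR KO MEF shows its split arrays; points of Slc2a3, Slc2a4, Hk3, Pfkfb2, Pgam2, Slc16a1 and Slc16a3 rest in at least 1 panel on a group not well above background.

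For lactate, the dehydrogenase subunits were not called. Ldha read 17.64 and 17.75 in WT, 17.04 and 17.35 in TIA1 KO, and 17.45 and 17.92 in TIAR KO MEF, and its 3 probes gave differences between -0.50 and -0.04 in TIA1 KO and between -0.60 and -0.01 in TIAR KO MEF. Ldhb, the subunit of oxidative tissues, read 10.58 and 11.29 in WT and 11.52 and 12.16 in TIA1 KO MEF, a difference of 0.90 ± 0.36 (adjusted p = 0.198). Slc16a3 (MCT4, chr11:120820023-120820082), the lactate exporter of glycolytic cells, read 8.99 and 9.01 in WT, 9.05 and 8.29 in TIA1 KO, and 7.37 and 7.70 in TIAR KO MEF. It fell by 1.46 ± 0.17 in TIAR KO MEF, 2.76-fold (adjusted p = 0.00853), with 1 of the 2 TIAR KO arrays well above background. Its second probe, above background on both, gave -1.53 (adjusted p = 0.00606), and the call held without each array in turn. In TIA1 KO MEF the brightest probe was not well above background, and its readings overlapped WT (adjusted p = 0.489). The second probe, shifted by a few bases and above background on 1 of the 2 TIA1 KO arrays, gave -1.45 (adjusted p = 0.138). Slc16a1 (MCT1) was above background on neither TIA1 KO array, read at least 1.16-fold higher in WT than there (adjusted p = 0.125), and differed by -0.20 ± 0.18 in TIAR KO MEF, where 1 of the 2 arrays was above background.

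No pentose phosphate gene among the members was called against WT in either knockout. Pgd (6-phosphogluconate dehydrogenase, chr4:148524293-148524352), an NADPH-yielding step, had 1 usable WT array, which read 13.08, with 11.95 and 11.84 in TIA1 KO and 13.19 and 13.48 in TIAR KO MEF. The fit dropped the outlier spot of WT replicate 1, and the TIA1 KO difference of -1.18 ± 0.21 did not pass (adjusted p = 0.0957). Rpia (ribose 5-phosphate isomerase) differed by -0.86 ± 0.30 in TIA1 KO MEF (adjusted p = 0.165), with arrays that did not overlap WT. Tkt (transketolase) differed by 0.73 ± 0.30 in TIAR KO MEF (adjusted p = 0.27), Taldo1 (transaldolase) by -0.57 ± 0.18 (adjusted p = 0.163), and Pgls read between 10.93 and 12.35 over the 6 arrays with all groups overlapping. Of 13 further genes of this pathway, 11 were detected on both WT arrays, 11 on both TIAR KO arrays and 8 on both TIA1 KO arrays, and none was called against WT, including G6pdx, the glucose 6-phosphate dehydrogenase that opens the pathway (-0.13 and 0.06).

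The knockouts were also compared with each other on their own 4 arrays, without the WT arrays. Here 4 of the 38 genes were called higher in TIAR KO than in TIA1 KO MEF and none lower, 10.5% against a background of 4.18% in either direction (2.06% higher and 2.12% lower, or 7.31% either way over detected probes), with 12599 of the 55681 probes and 13 of the 38 genes at an unadjusted p under 0.05. Pfkfb3 was higher in TIAR KO MEF by 1.63 ± 0.22 (adjusted p = 0.0463), Eno2 by 1.43 ± 0.19 (adjusted p = 0.0443) and Pgd by 1.44 ± 0.18 (adjusted p = 0.0401). Pgam2 was at least 3.75-fold higher in TIAR KO MEF (adjusted p = 0.0264). These genes do not share a step, since they encode an activator of phosphofructokinase, a mutase, an enolase and a pentose phosphate dehydrogenase. Without TIAR KO replicate 1 or 2 limma called no probe on the array in this comparison (6319 and 6408 had an unadjusted p under 0.05), without TIA1 KO replicate 2 it called 8 members higher and 1 lower, and in the authors' table Pgam2 was the 1 member called. The difference of Eno3, 1.42 ± 0.22, did not pass (adjusted p = 0.0581), and for Pdk1, Pdk3, Pdk4 and Pfkl the knockouts differed by 0.56 or less in either direction (adjusted p between 0.301 and 0.745).

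Neighbouring pathways were read from further lists, whose counts stand beside the 4.51% (TIA1 KO) and 7.18% (TIAR KO) of all gene names called, and whether a list differed between the knockouts in its calls was not tested. Among 10 genes of pyruvate entry, Pcx, the pyruvate carboxylase that feeds oxaloacetate to the mitochondrial cycle, was the 1 gene called in each knockout. Pcx read 12.84 and 12.84 in WT, 10.66 and 10.72 in TIA1 KO, and 11.25 and 11.12 in TIAR KO MEF. It fell by 2.15 ± 0.15, 4.44-fold, in TIA1 KO (adjusted p = 0.0121) and by 1.65 ± 0.14, 3.15-fold, in TIAR KO MEF (adjusted p = 0.00319), and in the TIA1 KO comparison the call was lost without either WT array, as were all others. Of the 15 remaining genes of glycolysis, none was called in TIA1 KO MEF and 2 rose in TIAR KO MEF. These were Galm, the aldose 1-epimerase (9.03 and 9.24 in WT, 10.95 and 10.77 in TIAR KO MEF, adjusted p = 0.00409), and Hkdc1, a hexokinase-like gene that was at least 1.85-fold higher than in WT MEF (adjusted p = 0.0129). Of 6 gluconeogenesis genes, G6pc3, the ubiquitous glucose 6-phosphatase, was the 1 gene called. G6pc3 read 12.27 and 11.91 in WT, 13.44 and 13.29 in TIA1 KO, and 8.19 and 8.40 in TIAR KO MEF. It fell by 3.79 ± 0.19, 13.9-fold, in TIAR KO MEF (adjusted p = 0.000604), and TIA1 KO MEF read above WT by 1.27 ± 0.20 without passing (adjusted p = 0.0576).

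Among 14 other hexose and monocarboxylate transporters and their partners none was called in TIA1 KO MEF, and 3 rose and 2 fell in TIAR KO MEF. Emb (embigin), a partner of the monocarboxylate carriers, read 8.81 and 9.22 in WT, 7.94 and 8.28 in TIA1 KO, and 12.31 and 12.64 in TIAR KO MEF, a rise of 3.46 ± 0.21 (adjusted p = 0.00108). Arrdc4, an arrestin that restrains glucose uptake, read 7.93 and 8.28 in WT and 10.31 and 11.11 in TIAR KO MEF, a rise of 2.60 ± 0.30 (adjusted p = 0.00842). Slc2a10 (GLUT10) fell by 1.86 ± 0.15 in TIAR KO MEF (adjusted p = 0.00257), and Slc2a13 was at least 2.61-fold higher there than in WT MEF (adjusted p = 0.00946). The calls for Emb, Arrdc4, Slc2a10, Galm and G6pc3 held without each array in turn. That for Slc2a13 was lost without TIAR KO replicate 2, with the processed signal, with all 3 groups fitted together and with the mean of its 2 probes (log2 difference 0.61 beside 1.43), and that for Hkdc1 without any 1 of the 4 arrays.

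A list of 15 genes that hypoxia is known to induce outside glycolysis was read because Pdk1, Slc16a3 and several glycolytic genes share that induction. The list did not move 1 way. In TIA1 KO MEF 3 of its genes rose and none fell, and in TIAR KO MEF 1 rose and 3 fell, with median log2 differences of -0.19 and -0.12. P4ha2, a collagen prolyl hydroxylase, read 13.00 and 13.02 in WT, 14.66 and 14.52 in TIA1 KO, and 14.63 and 14.70 in TIAR KO MEF, rising by 1.58 ± 0.15 (adjusted p = 0.0238) and 1.65 ± 0.14 (adjusted p = 0.00293). Vegfa rose by 1.30 ± 0.15 in TIA1 KO MEF (adjusted p = 0.0326), and Adm (adrenomedullin) read 8.08 and 8.75 in WT and 11.59 and 12.02 in TIA1 KO MEF, a rise of 3.39 ± 0.31 (adjusted p = 0.0215). With arrays scaled to a common median, the TIA1 KO differences of Vegfa and P4ha2 were -0.29 and -0.0056. In TIAR KO MEF Ankrd37 fell by 2.20 ± 0.31 (adjusted p = 0.0151). Egln1, an oxygen-sensing hydroxylase, fell by 1.76 ± 0.17 (adjusted p = 0.00511), and Bnip3, a mitophagy receptor, fell by 1.25 ± 0.17 (adjusted p = 0.0145). The Ankrd37 call was lost without TIAR KO replicate 2, and the Bnip3 call without WT replicate 2 or either TIAR KO array.

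**Figure D4:**
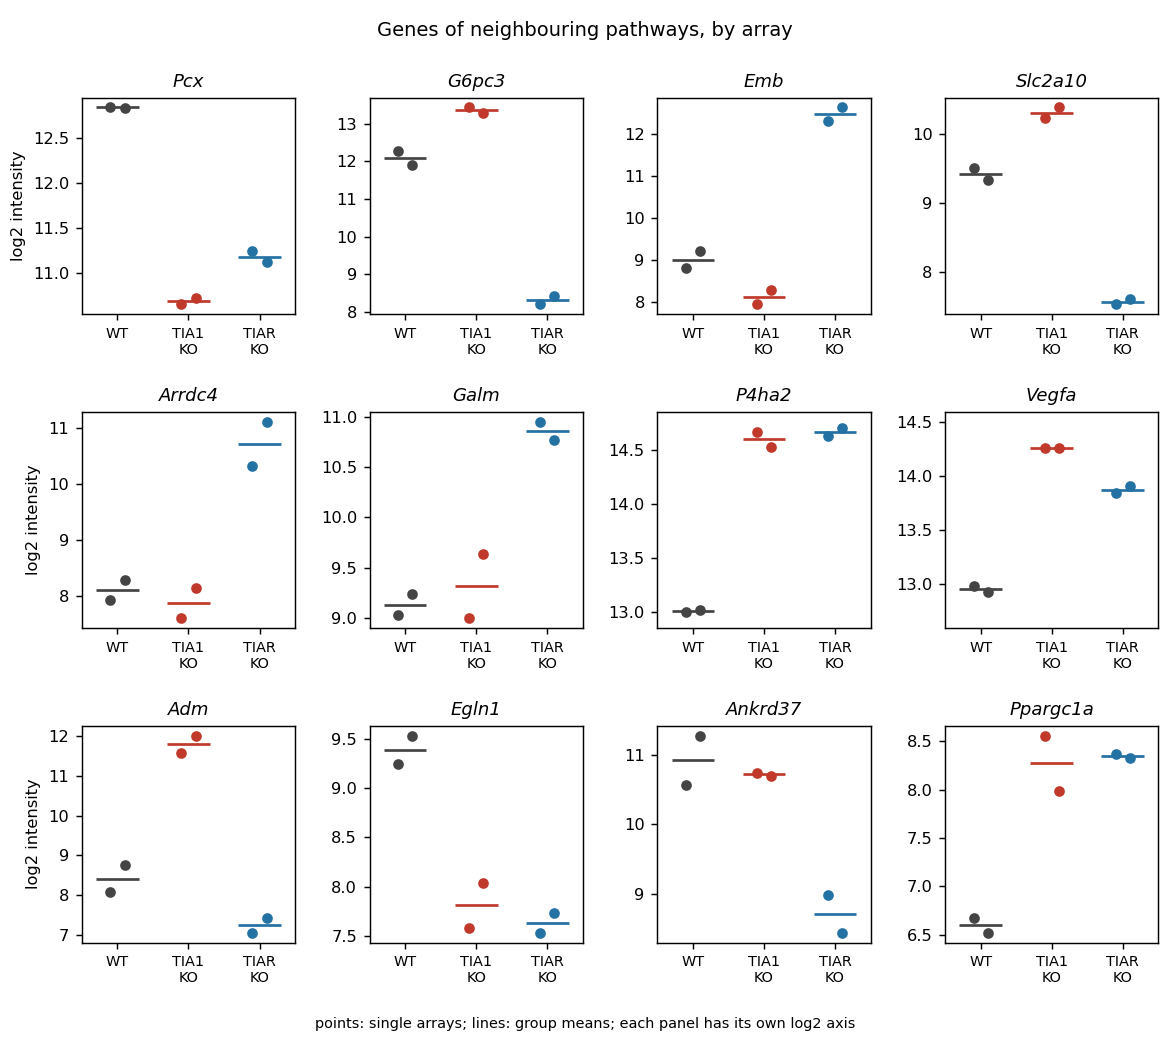
Log2 intensity (y axis) of the brightest probe of 12 genes of neighbouring pathways in WT, TIA1 KO and TIAR KO MEF (x axis), with 1 point per array and a line at the group mean. Pcx and Egln1 read below WT and P4ha2 above WT on all 4 knockout arrays, G6pc3 and Slc2a10 are low and Emb and Arrdc4 high in TIAR KO MEF, and Adm is high in TIA1 KO MEF.

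Of 10 regulators of glycolytic genes, 1 fell in TIA1 KO MEF and 1 rose in TIAR KO MEF. Arnt, the dimer partner of hypoxia-inducible factor, read 12.47 and 12.38 in WT, 11.37 and 11.28 in TIA1 KO, and 12.06 and 12.16 in TIAR KO MEF, and fell by 1.10 ± 0.15 in TIA1 KO MEF (adjusted p = 0.0464), a call that was lost without TIA1 KO replicate 1 and in the authors' table. Hif1a and Myc were not called, with Hif1a at 0.10 and -0.02 and Myc at -0.16 and 0.75. Ppargc1a, a coactivator of mitochondrial genes, read 6.67 and 6.52 in WT, 8.56 and 7.99 in TIA1 KO, and 8.37 and 8.32 in TIAR KO MEF. It was above background on the TIAR KO arrays alone, where it was at least 2.75-fold higher than in WT MEF (adjusted p = 0.00283), and the TIA1 KO value did not pass (adjusted p = 0.0528).

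Markers of other cell types were read on the same arrays. Of 4 epithelial markers 3 were called higher in TIAR KO and 1 in TIA1 KO MEF, with summed intensities of 681 and 701 in WT, 1041 and 1342 in TIA1 KO, and 2221 and 2182 in TIAR KO MEF, and Krt18 read 7.29 and 7.30 in WT and 10.08 and 9.95 in TIAR KO MEF. Krt8 rose by 1.23 in each knockout, and Cdh1 was at least 2.53-fold higher in TIAR KO than in WT MEF. Of 5 blood markers 1, Itgam, was called higher in TIA1 KO MEF, and 2 were above background on none of the 6 arrays. None of 3 endothelial and 2 adipocyte markers was called against WT, and both adipocyte markers were above background on no array. The part of these markers in the differences above was not tested.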

How the data were processed

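Gene expression was measured in 6 arrays, 2 for each MEF line (WT, TIA1 KO, TIAR KO). The authors' deposited scanner files hold linear spot intensity from Agilent Feature Extraction 10.7.3.1, with probe positions on mm9 per the file headers. A second deposited table holds the authors' own log2 intensities, which per the methods were corrected by normexp with an offset of 50, loess normalized and quantile scaled, with limma. Starting from mean spot and median local background intensities, the same steps were repeated here in R 4.3.3 with limma 3.58.1 (normexp offset 50, 1 pass of loess against the mean array, quantiles), and the values correlated with the authors' table at r of 0.997 or more on each array. Control and outlier spots were left out, spots of a probe were averaged, and the scanner values were used as the main values, the authors' table as an alternative.

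Each comparison was fitted on its own 4 arrays (lmFit and eBayes), with Benjamini-Hochberg adjustment over 55681 probes. A gene was read from its brightest probe by mean over the 6 arrays. The members and the further gene lists were chosen with earlier results of these data known. Genes of the further lists were named if called, at most the 4 largest changes per list and knockout, beside the brightest fibroblast marker of each line, markers at background and the regulators Hif1a and Myc and enzyme G6pdx, named without a call. At least-fold values set the mean of the group measured against the mean, per array, of the higher of the lowest log2 value among probes well above background and the probe's own value. Such folds are approximate, since a probe not well above background can read above that lowest value. Promoter windows came from RefSeq (GRCm38.p6) and were searched with Python 3.11. Alternatives covered the starting signal, scaling, filters, fit, probe choice and each array left out.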

Additional observations from a re-analysis of the deposited data

Results flagged for a closer look

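The test of the difference between the knockouts themselves flagged 4 of the 38 genes, all higher in TIAR KO than in TIA1 KO MEF. These were Pfkfb3 (log2 difference 1.63), Pgd (1.44), Eno2 (1.43) and Pgam2, each with both TIAR KO arrays above both TIA1 KO arrays. Pgam2 was above background on neither TIA1 KO array and was at least 3.75-fold higher in TIAR KO MEF. Its fitted log2 difference of 2.53 is therefore not an exact value and is not ranked with the others. For the brightest probe of 2 more genes every TIA1 KO array lay on one side of both WT arrays and every TIAR KO array on the other. Pdk2 was lower in TIA1 KO and higher in TIAR KO MEF, with a direct difference of 1.20 that did not pass (limma, adjusted p = 0.158), and Hk1 was the other way round, with a direct difference of -0.27 (adjusted p = 0.377), although its TIA1 KO difference from WT turned to -1.38 with a common array median. The other probes of both genes did not lie on opposite sides of WT, since the second Pdk2 probe overlapped WT in TIAR KO MEF and both other Hk1 probes overlapped WT in TIA1 KO MEF. Both were picked by the side of the arrays alone, and whether the responses differ was not tested for either beyond that direct comparison. With 2 arrays per group no array could be tested as an outlier.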

How the results depend on the processing

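Counts of members called are given as higher and lower. In TIA1 KO against WT (1 and 4) they were 0 and 0 with the processed signal scaled to the 75th percentile, with treat, with the authors' log2 table and with the replicate block, 1 and 1 with a normexp offset of 16 or without loess, 0 and 29 with a common array median, 2 and 8 with a common median of detected probes, 1 and 7 with detected probes only or all 3 groups in 1 fit, and between 0 and 1 and between 0 and 11 with 1 array left out. In TIAR KO against WT (5 and 4) they were 3 and 3 with the processed signal, 4 and 7 with a common array median, 0 and 0 with treat, 5 and 3 with the replicate block, and between 2 and 5 and between 3 and 4 with 1 array left out. In TIAR KO against TIA1 KO (4 and 0) they were 0 and 0 with the processed signal, treat and the replicate block, 1 and 0 with an offset of 16 or the authors' table, 13 and 0 with a common array median, 2 and 0 with a common median of detected probes, and between 0 and 8 and between 0 and 1 with 1 array left out. In such fits the lone array is assumed to vary like the others. The replicate numbers did not pair the arrays, since deviations of same-numbered arrays correlated at 0.078, 0.030 and -0.073, so the block result says nothing of a weaker effect.

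Over the whole array, TIA1 KO calls (1969) became 0 with the processed signal, whose median over all probes was 1.98, 15801 with a common array median and 16942 with a common median of detected probes, where the shift over all probes was 0.88. Of these calls 61.6% were higher, against 11.9% and 94.8% under the last 2 scalings, and in TIAR KO MEF 58.8%, against 34.4% and 71.3%. Between the knockouts the share moved from 51.3% to 87.2% and 26.2%, and to 8.28% with the processed signal. The turns in direction listed first are those of genes called in the main fit or in the alternative. In TIA1 KO MEF with a common array median they were Hk1 (-1.38), Pgam1 (-1.42), Eno3 (-1.51), Tkt (-1.31), Vegfa (-0.29) and P4ha2 (-0.0056). Slc2a4 (0.083) turned there with a common median of detected probes. Pfkp in TIAR KO MEF read -2.13 without TIAR KO replicate 2 and 2.91 without TIAR KO replicate 1. Values called in neither fit also changed sign. With the processed signal, examples in TIA1 KO MEF were Hk3 (-0.23 to 3.31), Pgam2 (-0.36 to 1.52), Slc16a1 (-0.82 to 0.18) and Pgls (0.53 to -0.23). The cause was not tested in any of these. Over all alternatives run on the 38 genes, the called genes of the pathway lists, Tia1 and Tial1, values of single genes and medians stayed the same (same side of the threshold, or a median within its spread) in 2597 cases, while single genes lost a call in 190 and gained one in 135.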
